A study of Mus musculus with 24 samples.

Results

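Accessibility was followed at the promoters of homeobox developmental regulators in mouse embryonic stem cells. The set holds the intervals of open chromatin within 1000 bp of an annotated transcription start site (TSS) of a numbered Pax, Lhx, Nkx, sine oculis (Six2 and its relatives), Dlx, Irx, Msx, Emx, Meis or Pitx gene on chromosomes 1 to 19. The distance runs from the centre of an interval, so a wide interval that is left out can still cover a TSS. The set has 41 intervals of 40 genes, out of 145143 intervals in all and 16400 intervals within 1000 bp of a TSS on those chromosomes. Members came from 9 of the 10 families, with 10 from Nkx, 6 from Lhx, 5 each from Pax, Dlx and Irx, 3 each from the sine oculis and Msx families, 2 each from Emx and Pitx and 0 from Meis.

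Accessibility was read by ATAC-seq, where a transposase cuts and tags open DNA, and reads were counted per interval. A Firre knockout line with a doxycycline-inducible Firre transgene (KO Firre), a Firre knockout line without it (KO control), a wild type line with the inducible transgene (WT Firre) and a wild type line without it (WT control) were compared. Firre is a long noncoding RNA of the X chromosome, and the time course was designed to tell its induction from the effect of the drug. All 4 lines received doxycycline and were sampled at 0, 30, 60, 90, 120 and 150 min, with 1 library per line and time. The KO Firre, KO control and WT control lines had 6 libraries each and the WT Firre line had 5, because its 60 min library was not analysed here. The cells of every line were kept on gelatin with LIF and inhibitors of MEK (PD0325901) and GSK3 (CHIR99021), a medium that favours the naive pluripotent state. The labels name no separate clone or culture within a line, so genotype and clone cannot be told apart. The p-values reflect only how much the libraries of a line vary, which may be technical.

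Homeobox genes encode transcription factors that bind DNA through a homeodomain and assign positional and cell identity in the embryo. Of the families here, the Lhx proteins add LIM domains and most Pax proteins a paired domain beside the homeodomain, while Pax1 and Pax9 keep the paired domain without a homeodomain. In pluripotent cells these genes are known as largely silent, with CpG-rich promoters that carry Polycomb marks together with marks of activity. An open promoter therefore does not show that the gene is transcribed. In bulk libraries, fewer cells with an open promoter and a less open promoter in each cell cannot be told apart.

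The starts of 32 of the 40 genes were found in a RefSeq promoter table of build GRCm38.p6, which gives 250 bases before and 50 after each start. Of these 32 windows, 22 overlapped the gene's member interval, and 13 lay within 100 bp of the TSS used by the authors. The 5 windows printed here all overlap the member interval and were chosen after the values were seen: Lhx2 and Six2 for their high accessibility, Nkx6-1 and Pax7 because their line differences were called under some settings, and Nkx3-2 for its time trend. They read 5′ to 3′ on the gene's strand, with every CpG dinucleotide in capitals.
Lhx2, chr2:38351058-38351357 (plus strand): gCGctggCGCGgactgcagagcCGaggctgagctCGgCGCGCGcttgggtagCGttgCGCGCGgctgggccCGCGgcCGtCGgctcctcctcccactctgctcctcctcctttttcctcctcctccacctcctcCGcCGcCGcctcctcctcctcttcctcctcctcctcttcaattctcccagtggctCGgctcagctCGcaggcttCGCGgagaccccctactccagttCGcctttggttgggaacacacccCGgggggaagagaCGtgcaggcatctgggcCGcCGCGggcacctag
Six2, chr17:85688205-85688504 (minus strand): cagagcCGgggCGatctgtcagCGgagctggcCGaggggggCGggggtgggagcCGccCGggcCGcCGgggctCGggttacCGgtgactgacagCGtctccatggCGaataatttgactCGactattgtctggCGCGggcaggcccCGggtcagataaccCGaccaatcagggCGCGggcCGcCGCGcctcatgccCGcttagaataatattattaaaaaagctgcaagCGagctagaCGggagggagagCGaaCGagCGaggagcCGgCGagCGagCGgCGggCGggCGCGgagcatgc
Nkx6-1, chr5:101664662-101664961 (minus strand): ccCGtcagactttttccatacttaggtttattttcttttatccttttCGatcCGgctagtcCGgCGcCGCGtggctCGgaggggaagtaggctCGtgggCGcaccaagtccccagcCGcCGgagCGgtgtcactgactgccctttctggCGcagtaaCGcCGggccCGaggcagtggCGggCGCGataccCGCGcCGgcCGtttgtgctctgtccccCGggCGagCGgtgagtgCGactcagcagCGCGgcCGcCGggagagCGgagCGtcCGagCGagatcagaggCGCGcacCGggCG
Pax7, chr4:139832919-139833218 (minus strand): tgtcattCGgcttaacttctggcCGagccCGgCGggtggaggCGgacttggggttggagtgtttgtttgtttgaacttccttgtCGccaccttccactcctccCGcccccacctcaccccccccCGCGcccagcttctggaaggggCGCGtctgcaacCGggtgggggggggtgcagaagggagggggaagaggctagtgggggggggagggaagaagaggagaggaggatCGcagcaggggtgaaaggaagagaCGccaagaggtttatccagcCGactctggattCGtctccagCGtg
Nkx3-2, chr5:41764171-41764470 (minus strand): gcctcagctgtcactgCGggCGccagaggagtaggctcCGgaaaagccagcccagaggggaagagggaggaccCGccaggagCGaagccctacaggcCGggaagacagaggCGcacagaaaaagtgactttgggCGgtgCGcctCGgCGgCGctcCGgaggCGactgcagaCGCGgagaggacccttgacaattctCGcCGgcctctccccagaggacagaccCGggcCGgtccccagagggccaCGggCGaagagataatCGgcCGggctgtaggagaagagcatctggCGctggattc

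In the printed windows the ratio of observed to expected CpG was 0.835 for Lhx2, 1.13 for Six2, 1.18 for Nkx6-1, 0.581 for Pax7 and 0.761 for Nkx3-2. Each lies above the median of all promoters given below, and Pax7 is under 0.6. Over the 22 windows that overlap a member interval the median ratio was 0.775 (range 0.241 to 1.18), and 16 of them (72.7%) reached 0.6. Among all 32851 promoters in the table the median was 0.384, and 35.8% reached 0.6. The share of G and C had a median of 64.8% over the 22 windows, against 52.7% over all promoters. The GC box GGGCGG, searched on both strands, was present in 17 of the 22 windows (77.3%) and in 35.7% of all promoters, where more G and C alone gives more matches. The TATA box TATAAA was found on either strand in 2 of the 22 windows (9.09%) and in 13.6% of all promoters. The homeodomain core TAATTA, which reads the same on both strands, was found in 1 window (4.55%) and in 5.29% of all promoters. These counts describe the letters of the windows and were not tested. The 22 windows were kept for their overlap with an open interval, whereas the 32851 promoters were not. Open promoters alone were not set beside the 22.

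Levels are given as CPM, the count of an interval relative to a library size scaled by TMM (trimmed mean of M values), and as CPM per kb of interval wherever promoters are compared with each other. Lhx2, a LIM-homeodomain gene of forebrain, eye and hair follicle development, had the highest mean level at 20.6 CPM per kb. It was followed by Irx5, an Iroquois gene of heart and retina, at 20.4, by Six2, which maintains nephron progenitors, at 17.7, and by Six5, the neighbour of the myotonic dystrophy kinase gene Dmpk, at 15.9 CPM per kb. Nkx6-1, a regulator of pancreatic beta cells and motor neuron progenitors, had 14.7 CPM per kb, and Msx2, a gene of skull and limb growth, had 14.6 CPM per kb. All 6 lay above the median of the protein-coding promoter intervals, 11.4 CPM per kb.

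The lowest level was that of the second Irx6 interval, in intron 1, at 2.64 CPM per kb. It was the 1 member that fell below the filter on low counts, so 40 members were tested. Lhx4, a pituitary LIM-homeodomain gene, had 3.75 CPM per kb, and the cortical regulators Emx2 and Emx1 had 4.70 and 4.79 CPM per kb. Pax7, the paired-box gene of muscle satellite cells, had 4.93 CPM per kb and Nkx2-5, an early heart gene, had 5.28 CPM per kb. The order was a gradual one. Of 40 pairs of neighbours in it, 1 was separated by more than the larger SD of the pair over all libraries, and the other pairs were not. Neighbours in a sorted order lie close by construction, and differences between them were not tested.

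**Figure D1:**
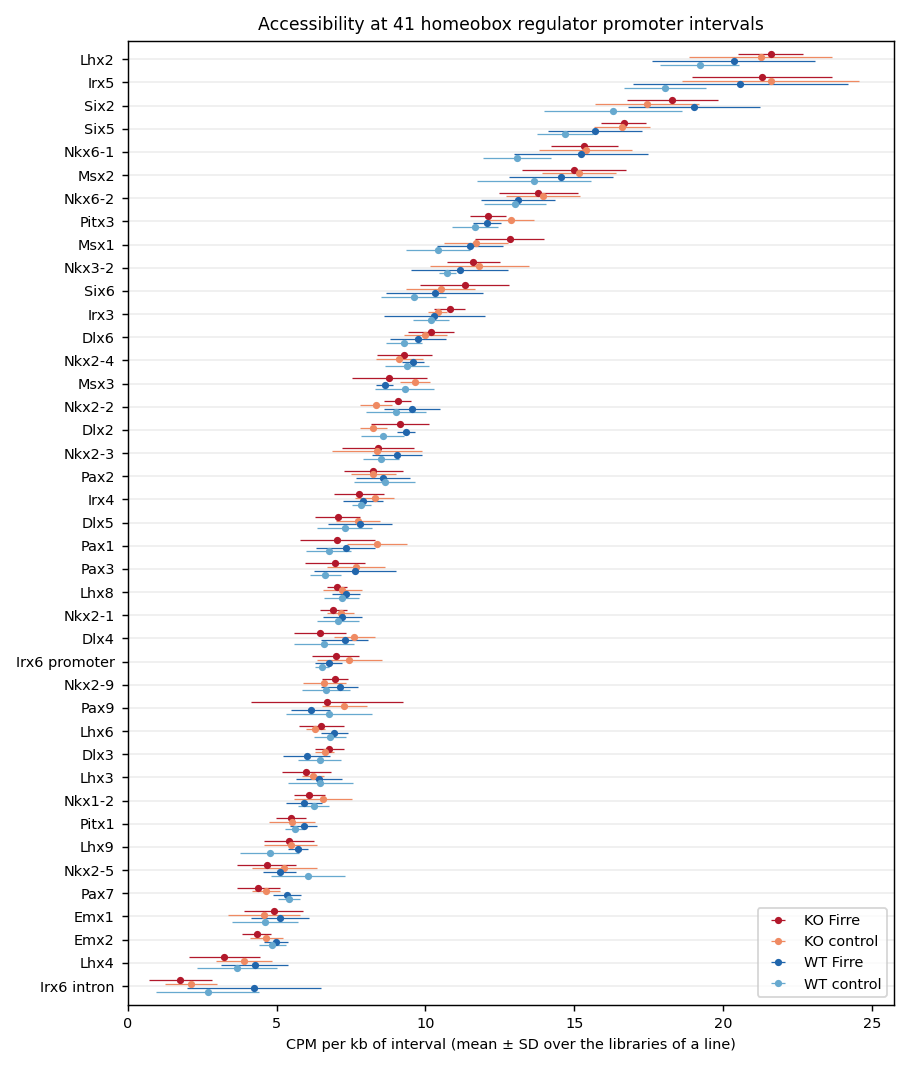
Mean CPM per kb of interval at each of the 41 members (rows, highest on top) in the KO Firre, KO control, WT Firre and WT control lines, with bars of 1 SD over 6, 6, 5 and 6 libraries. Lhx2 and Irx5 lead in all 4 lines, and Six2 comes next in each.

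The members were wide rather than intense. Their median width was 1881 bp, against 1218.5 bp for all 16400 promoter intervals and 1325 bp for the protein-coding ones. Of the 41 members, 19 (46.3%) spanned at least 2000 bp, as did 13.0% of all promoter intervals. Their median level was 7.46 CPM per kb, and 45.3% of all promoter intervals lay below it. The widest was that of Nkx2-1, the regulator of thyroid, lung and ventral forebrain, with 4071 bp (chr12:56533041-56537111) and 7.08 CPM per kb. By the deposited annotation 20 members were centred in a promoter, 14 in an exon, 6 in an intron and 1 at a transcription end site.

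By family, Six2, Six5 and Six6 stood high, between 10.4 (Six6, an eye field gene) and 17.7 CPM per kb (Six2). The 3 Msx members, genes of limb, tooth and skull or, for Msx3, of the dorsal neural tube, had 9.11 to 14.6 CPM per kb. The Pitx members had 12.2 CPM per kb at Pitx3, a gene of lens and dopaminergic neurons, and 5.62 CPM per kb at Pitx1, a hindlimb gene. The 5 Dlx members, genes of the branchial arches and forebrain interneurons, were close together, from 6.48 at Dlx3 to 9.80 CPM per kb at Dlx6. The 5 Pax members lay between 4.93 (Pax7) and 8.42 CPM per kb (Pax2, a kidney and midbrain-hindbrain gene). The Lhx, Nkx and Irx families were spread widely, with 3.75 to 20.6, 5.28 to 14.7 and 2.64 to 20.4 CPM per kb.

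Within 1 Mb of each other, 16 members formed 6 clusters, and the levels were spread in some of them and close in others. At the Irx cluster on chromosome 8, which spans 876 kb, Irx5 (chr8:92355635-92358434) had 20.4 CPM per kb beside 10.4 at Irx3 and 6.93 at the Irx6 promoter. At Nkx2-1, Nkx2-9 and Pax9 on chromosome 12, which span 159 kb, the levels were 7.08, 6.82 and 6.74 CPM per kb. Dlx6 and Dlx5 on chromosome 6 had 9.80 and 7.46 CPM per kb, and Dlx3 and Dlx4 on chromosome 11 had 6.48 and 6.98 CPM per kb.

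A further 14 numbered genes of these families had intervals in the table but none with its centre within 1000 bp of a TSS. Some of these intervals were wide enough to cover the TSS all the same. They were the nearest ones of Dlx1 (2234 bp wide), Meis1 (2797 bp), Pax8 (2478 bp), Nkx1-1 (4630 bp) and Six4 (3667 bp). The nearest misses were Irx2 at -1008 bp, Meis2 at -1012 bp, Dlx1 at -1086 bp and Meis1 at -1111 bp, where a negative distance is upstream. Just inside were Irx3 at 961 bp, the Irx6 intron at 954 bp and Emx2 at -943 bp.

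The libraries held between 5725518 and 14977148 counts in intervals (median 7664147), and a count of 0 allows between 0.198 and 0.555 CPM from a floor of 3 counts. The 20 intervals of Firre on the X chromosome summed to 18.4 to 28.9 CPM in KO Firre libraries, 6.67 to 14.5 in KO control, 117 to 141 in WT Firre and 82.9 to 101 CPM in WT control libraries. Both knockout lines were below both wild type lines, as their labels say. Of 8 embryonic stem cell marker genes, 8 had a promoter interval, with a median of 17.7, 18.4, 16.3 and 14.6 CPM per kb in KO Firre, KO control, WT Firre and WT control. Promoter intervals were found for 1 of 8 fibroblast feeder genes (Fn1), 2 of 7 primitive endoderm, 4 of 6 trophoblast and 3 of 5 neural progenitor genes. The promoter intervals took 26.5 ± 0.91% of all counts in KO Firre, 26.7 ± 1.17% in KO control, 25.9 ± 1.21% in WT Firre and 25.03 ± 0.47% in WT control libraries (SD, n = 6, 6, 5 and 6).

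The comparison of the KO control with the WT control line asks whether loss of Firre goes with a change at these promoters. Of 40 tested members 0 were called by edgeR, with 1 by DESeq2 (Nkx6-1) and 2 by limma-voom (Nkx6-1 and Irx5), all higher in the KO control line. In the background, 7.97% of all 129515 tested intervals and 17.6% of 15656 tested promoter intervals were called (edgeR quasi-likelihood F test, adjusted p of 0.05 or less, Benjamini-Hochberg), and 17.1% of the promoter intervals of at least 2000 bp. The promoter share depended on single libraries. It was 11.5%, 9.41% and 10.7% without the KO control library of 30, 90 or 120 min, 10.6% without the WT control library of 90 min and 27.0% without the KO control library of 150 min, and 3.69% without the KO control libraries of both 30 and 90 min. At an unadjusted p under 0.05 there were 6 members (15%) and 34.5% of promoter intervals. The median log2 difference of the members was 0.08, with 28 of 40 positive (70%), beside 0.09 and 65.8% positive over all promoter intervals. For 39 of the 40 members the interval of ± 1.96 SE stayed within a 1.5-fold difference in either direction, and Lhx4, with 1.34 CPM on average, was the exception.

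The sign of that median depended on the scaling. It was 0.08 with TMM and 0.09 with DESeq2 size factors, but -0.014 when libraries were scaled by total counts, -0.059 with loess offsets by abundance and -0.001 with a covariate for the promoter share. The median of all tested intervals was -0.12 with total counts and -0.02 with TMM. Calls among the members moved with it: 0 higher and 0 lower with TMM, against 0 higher and 1 lower with total counts (Pax7) and 0 higher and 3 lower with loess offsets (Lhx6, Dlx2 and Pax7). The promoter share was higher in the KO control line, 25.4% to 28.2%, than in the WT control line, 24.5% to 25.6%. With that share as a covariate 0 members were called by edgeR, and the promoter intervals had 181 higher and 19 lower calls, against 2533 and 215 without it.

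**Figure D2:**
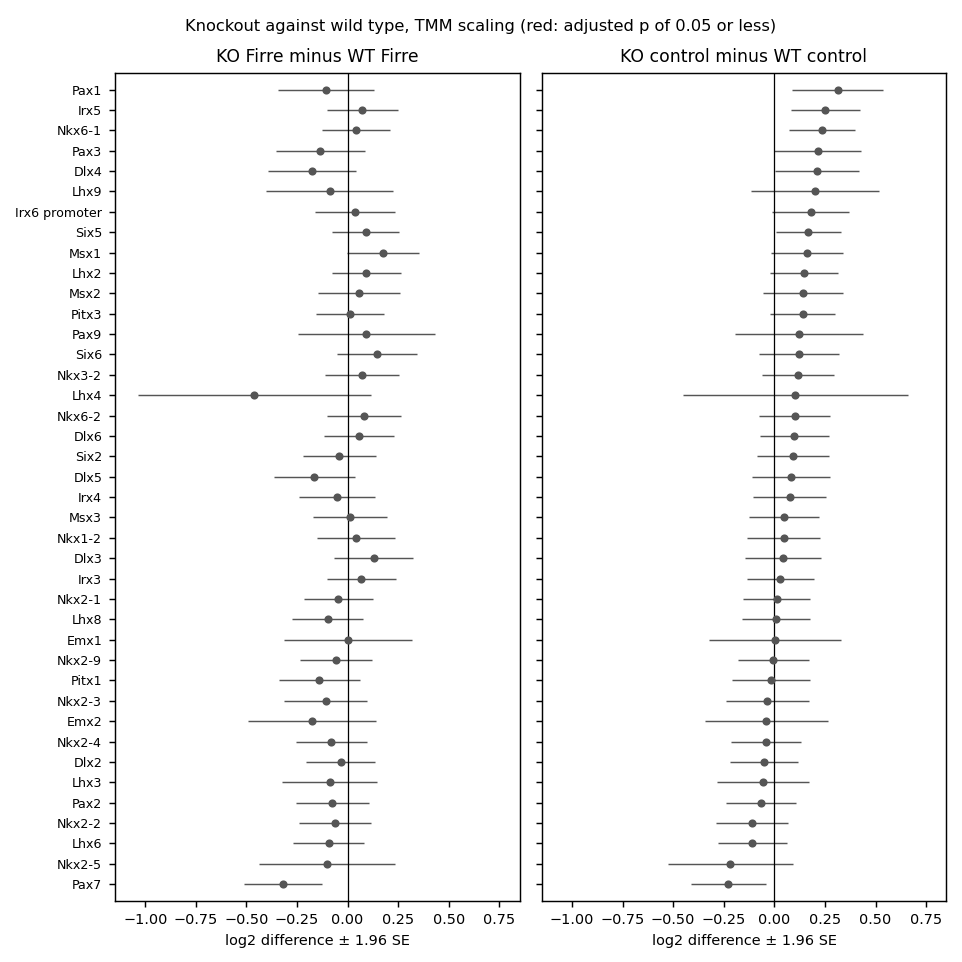
Log2 differences at the 40 tested members, KO Firre minus WT Firre on the left and KO control minus WT control on the right, with bars of ± 1.96 SE and members in the order of the right panel. On the TMM scale 0 members are called in either panel, and Pax7 is negative in both, at -0.32 and -0.23; total count and loess scaling give lower medians in both panels.

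Irx5 and Nkx6-1 had the smallest p and did not pass. Irx5 (chr8:92355635-92358434, annotated as a promoter under a gene ID other than that of Irx5) had 51.7 to 72.0 CPM (median 59.3) in KO control and 45.1 to 56.6 CPM (median 50.1) in WT control libraries, a log2 difference of 0.25 ± 0.09 (SE, edgeR adjusted p = 0.0554). Nkx6-1 (chr5:101663188-101665798, exon 1 of 3) had 34.3 to 44.6 CPM (median 40.5) in KO control and 28.9 to 36.9 CPM (median 34.5) in WT control libraries, a log2 difference of 0.23 ± 0.08 (SE, edgeR adjusted p = 0.0638). Limma-voom called both, DESeq2 called Nkx6-1, and with loess offsets both had the opposite sign. Both were also called on leaving out 1 library for 3 of 23 libraries, the KO control ones of 60 and 150 min and the WT Firre one of 150 min. In each case the groups overlapped. Pax1, a sclerotome gene, had the largest positive difference, 0.31 ± 0.11 (SE, edgeR adjusted p = 0.0722), with means of 9.18 and 7.41 CPM in the KO control and WT control lines; it is named here for that value.

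Pax7 was the member with the largest negative difference. Its interval (chr4:139831377-139834408, 3032 bp, exon 1 of 9) had 11.3 to 15.3 CPM (median 14.4) in KO control libraries and 14.4 to 17.5 CPM (median 16.7) in WT control libraries. The 2 groups overlapped between 14.4 and 15.3 CPM. The log2 difference was -0.23 ± 0.09 (SE, edgeR adjusted p = 0.127). It was called as lower with total counts (-0.32, edgeR adjusted p = 0.0167), with loess offsets (-0.32, edgeR adjusted p = 0.0155) and with a mean of at least 50 counts required (-0.32, edgeR adjusted p = 0.00702). The KO control library of 90 min, at 11.3 CPM, lay below the other 5 of that line.

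The KO Firre and WT Firre lines give a second comparison of knockout and wild type that shares no library with the first. Of 40 members 0 were called by edgeR, with 0 by DESeq2 and 0 by limma-voom, against 1.16% of all tested intervals and 1.32% of promoter intervals. That promoter share was 7.04% without the WT Firre library of 150 min, with 0 members called, and 2.65% without the KO control library of 150 min. It was 0.292% to 0.864% on leaving out any 1 of the other 4 WT Firre libraries or of the 5 KO Firre libraries after 0 min. At an unadjusted p under 0.05 there was 1 member (2.5%, beside 16.2% of promoter intervals). The median log2 difference was -0.04, with 18 of 40 positive (45%), beside 0.04 and 60.7% positive over all promoter intervals. Without the WT Firre library of 150 min the members' median was -0.02, as it was without the KO Firre library of 0 min. It was -0.07 without the KO Firre library of 30 min.

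That 1 member was again Pax7. It had 10.1 to 16.4 CPM (median 13.6) in KO Firre libraries, against 16.2, 14.5, 17.5, 15.2 and 17.8 CPM in WT Firre libraries at 0, 30, 90, 120 and 150 min. The groups overlapped through the KO Firre library of 0 min, at 16.4 CPM, which lay above 3 of the WT Firre libraries. The log2 difference was -0.32 ± 0.10 (SE, edgeR adjusted p = 0.083), from means of 13.3 ± 2.204 and 16.2 ± 1.45 CPM (SD, n = 6 and 5). It was called as lower with total counts (-0.36, edgeR adjusted p = 0.0326), with loess offsets (-0.38, edgeR adjusted p = 0.0107), with a mean of at least 50 counts required (-0.37, edgeR adjusted p = 0.0135) and without the 0 min libraries (-0.39, edgeR adjusted p = 0.0487). Leaving out the KO Firre library of 0 min also gave a call (-0.38, edgeR adjusted p = 0.0378), as did leaving out the KO control library of 150 min (-0.32, edgeR adjusted p = 0.0447). Irx5 and Nkx6-1, the members with the smallest p between the control lines, had log2 differences of 0.07 and 0.04 between KO Firre and WT Firre (SE 0.09 each).

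**Figure D3:**
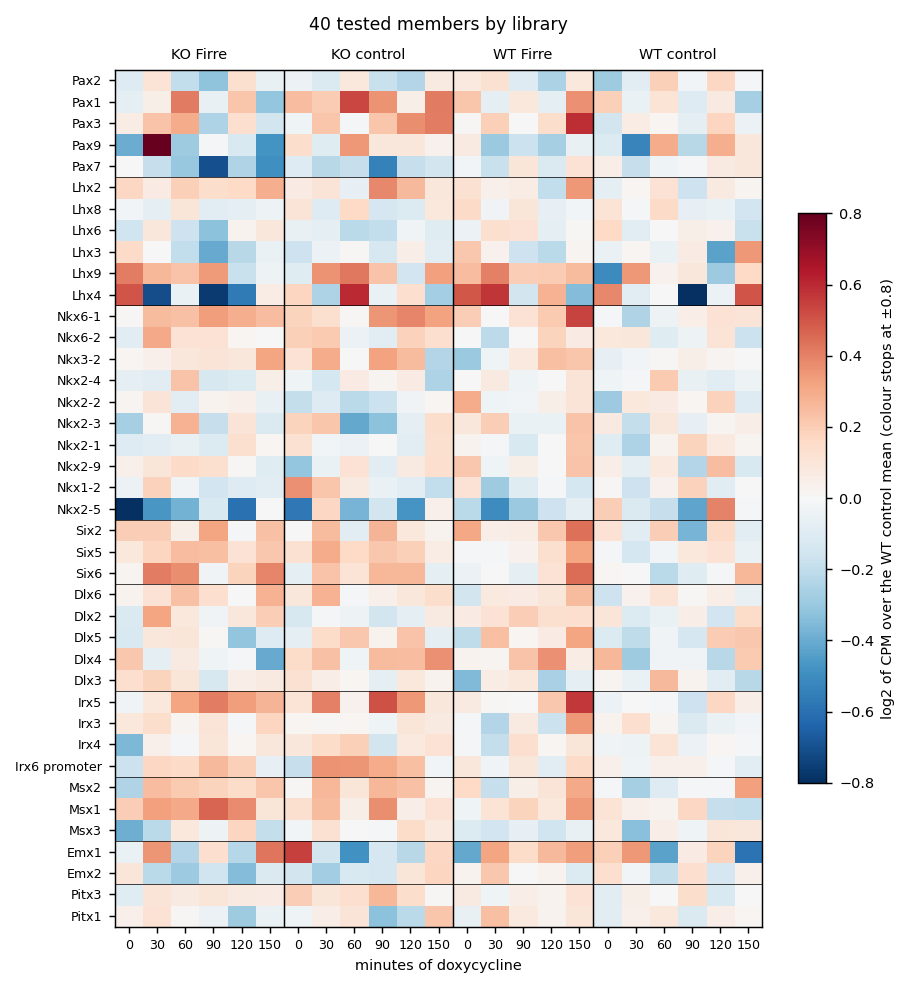
Log2 of the CPM of each tested member in each library over its mean in the WT control line, with members grouped by family and, within a family, by level, and libraries by line and minutes of doxycycline. The Pax7 row is below 0 in every KO Firre and KO control library, and the WT Firre column of 150 min is above 0 for most members.

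Each transgenic line was set against its own control, which asks about the transgene at all times together. Between KO Firre and KO control 0 of 40 members were called by edgeR, DESeq2 and limma-voom, beside 0.913% of all tested intervals and 0.505% of promoter intervals, a promoter share that ran from 0.192% to 0.916% on leaving out 1 library (KO Firre and KO control of 150 min). The median log2 difference was -0.01, and 2 members had an unadjusted p under 0.05, as did 9.7% of promoter intervals. These were Dlx4, a distal-less gene, at -0.24 ± 0.11 (SE, edgeR adjusted p = 0.303, means of 9.71 and 11.4 CPM) and Pax1 at -0.25 ± 0.11 (SE, edgeR adjusted p = 0.324, means of 7.72 and 9.18 CPM), named here for those values. The KO control libraries are shared with the comparison of the control lines, where Dlx4 and Pax1 had log2 differences of 0.21 and 0.31. Dlx4 lies on chromosome 11, where the median log2 difference between KO control and WT control over 1233 promoter intervals was 0.26; the part of the chromosome in the Dlx4 value was not tested.

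Between WT Firre and WT control 0 of 40 members were called by edgeR, DESeq2 and limma-voom, beside 0.0818% of all tested intervals and 0.0511% of promoter intervals, a promoter share running from 0.0317% to 0.337% on leaving out 1 library (WT Firre of 150 and 90 min). With TMM the median log2 difference was 0.07, with 34 of 40 positive (85%), beside 0.05 and 63.8% positive over all promoter intervals. Without the WT Firre library of 150 min the members' median was 0.04, with 28 positive. At an unadjusted p under 0.05 there were 2 members, beside 12.4% of promoter intervals. Six2 had 30.4, 25.5, 25.6, 28.6 and 33.3 CPM in WT Firre libraries, against 18.96 to 28.2 CPM (median 24.9) in WT control libraries, a log2 difference of 0.21 ± 0.09 (SE, edgeR adjusted p = 0.598). Nkx6-1 had 0.19 ± 0.09 (SE, edgeR adjusted p = 0.603), with its highest WT Firre value, 49.5 CPM, at 150 min. For 38 of the 40 members the interval of ± 1.96 SE excluded a 1.5-fold difference, the exceptions being Lhx9 and Lhx4. The number of positive members depended on the scaling. It was 24 with total counts (median 0.03), 23 with loess offsets (median 0.01) and 26 with a covariate for the share of counts in promoters (median 0.03).

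The difference between the transgene contrasts of both backgrounds was tested directly. Of 40 members 0 were called by edgeR, DESeq2 and limma-voom, beside 0.266% of all tested intervals and 0.313% of promoter intervals, and 3 had an unadjusted p under 0.05, beside 12.5% of promoter intervals. Those 3, named for their values, were Dlx4 (-0.39 ± 0.15), Pax1 (-0.42 ± 0.17) and Pax3, a neural crest and myogenic gene (-0.35 ± 0.16, SE throughout). With TMM the median was -0.06 for the members and -0.06 for all promoter intervals. The members' median was -0.03 without the WT Firre library of 150 min and -0.09 without that of 120 min, the KO control library of 60 min or the WT control library of 120 min. The promoter share of calls ran from 0.0768% without the KO Firre library of 120 min to 2.2% without the KO control library of 150 min. The size of the members' median depended on the scaling. It was -0.006 with total counts, -0.003 with loess offsets and -0.011 with a covariate for the share of counts in promoters. The medians of all promoter intervals were -0.013, -0.011 and -0.0096 in the same order.

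The members were also summed. Together the 41 intervals had 774 ± 24.9 CPM in KO Firre (SD, n = 6), 778 ± 20.7 in KO control (n = 6), 775 ± 52.9 in WT Firre (n = 5) and 735 ± 20.5 CPM in WT control libraries (n = 6). With total counts as library sizes the means were 750.3, 750.2, 769.5 and 755.2 CPM, so that the lower level of the WT control line was present with TMM and not with total counts. As a share of the counts in all promoter intervals the members held 0.283 ± 0.0082% in KO Firre, 0.282 ± 0.013% in KO control, 0.297 ± 0.0066% in WT Firre and 0.302 ± 0.0055% in WT control libraries. On this share, which does not depend on the scaling of the library, the KO control libraries (0.261% to 0.293%) stayed below the WT control libraries (0.296% to 0.312%), and the KO Firre libraries (0.270% to 0.292%) overlapped the WT Firre libraries (0.289% to 0.306%). No test was run on these sums, since the members were chosen with results known.

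**Figure D4:**
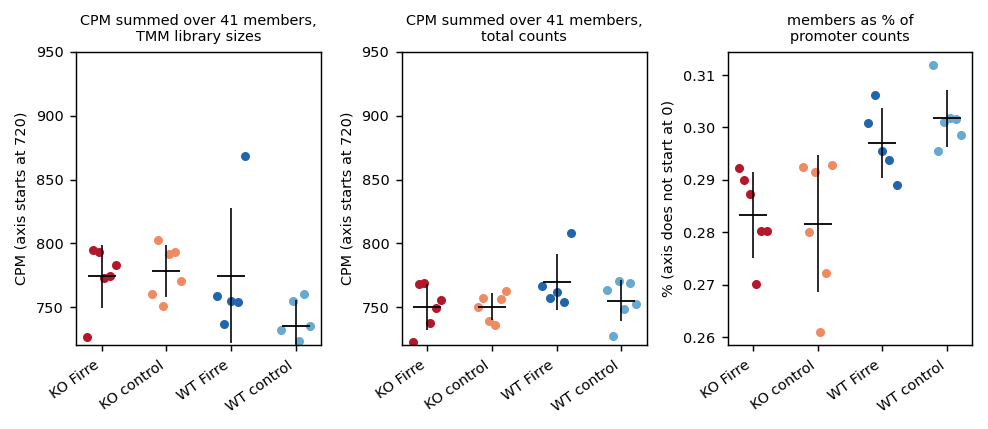
Each point is 1 library and the bars are the mean and SD of a line, for the CPM summed over the 41 members on TMM library sizes (left), the same on total counts (middle) and the members' percent of all promoter counts (right). The left axis cuts off the WT control library of 30 min, at 704 CPM, and the lower end of that line's bar. The WT control line is lowest on the left at 735 CPM, at 755.2 CPM between the knockout lines and the WT Firre line in the middle, and highest on the right at 0.302%.

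The time contrasts ask whether the members respond to induction. For the mean change from 30 to 150 min against 0 min, Firre lines minus control lines, 0 of 40 members were called by edgeR, DESeq2 and limma-voom, beside 0% of all tested intervals. Over all intervals 4885 (3.77%) had an unadjusted p under 0.05, and 2 of these were members. Emx1 had a response of 0.83 ± 0.31 on the log2 scale (SE, edgeR adjusted p = 1). It had 3.74 CPM at 0 min and 3.3 to 5.23 CPM later in the KO Firre line, and 2.92 CPM at 0 min and 4.30 to 4.91 CPM later in the WT Firre line, against 5.68 CPM at 0 min and 2.78 to 4.36 CPM later in the KO control line and 4.44 CPM at 0 min and 2.58 to 4.95 CPM later in the WT control line. In the KO Firre line the later values lie on both sides of the 0 min value, and the interval held 18 to 65 counts a library. Nkx2-2, a gene of ventral spinal cord and pancreas, had -0.38 ± 0.18 (SE, edgeR adjusted p = 1), with 23.5 CPM at 0 min in the WT Firre line and 18.7 to 20.6 CPM later.

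The interval of ± 1.96 SE of the mean response reached a 1.5-fold change for 9 of 40 members, so a change of that size is not excluded for them. The change in the control lines alone called 0 members by edgeR, DESeq2 and limma-voom, beside 0% of all tested intervals. An unadjusted p under 0.05 was found for 1 member and for 5.26% of all tested intervals. The members with the smallest p in it were Emx1 (-0.48 ± 0.21, edgeR adjusted p = 0.942) and Lhx9, a gonad gene (0.44 ± 0.24, SE, edgeR adjusted p = 0.949). A linear slope shared by both backgrounds, Firre lines minus control lines, called 0 members by all 3 tools, beside 0.000772% of all tested intervals (1 interval). At an unadjusted p under 0.05 there were 2 members and 5.05% of all tested intervals.

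Nkx3-2, a gene of the axial skeleton, had the slope with the smallest p, 0.18 ± 0.07 per hour on the log2 scale (SE, edgeR adjusted p = 0.959). In the WT Firre line it had 16.3, 19.6, 21.2, 23.7 and 23.4 CPM at 0, 30, 90, 120 and 150 min, and in the KO Firre line it stayed between 20.3 and 21.6 CPM up to 120 min and had 24.9 CPM at 150 min. The KO control line had 21.8, 24.6, 20.02, 25.1, 23.9 and 17.0 CPM over the 6 times, and the WT control line stayed between 19.2 and 20.7 CPM. The trend thus combines a higher late level in both Firre lines with a low last KO control library. Emx1 followed with 0.29 ± 0.13 per hour (SE, edgeR adjusted p = 0.959).

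**Figure D5:**
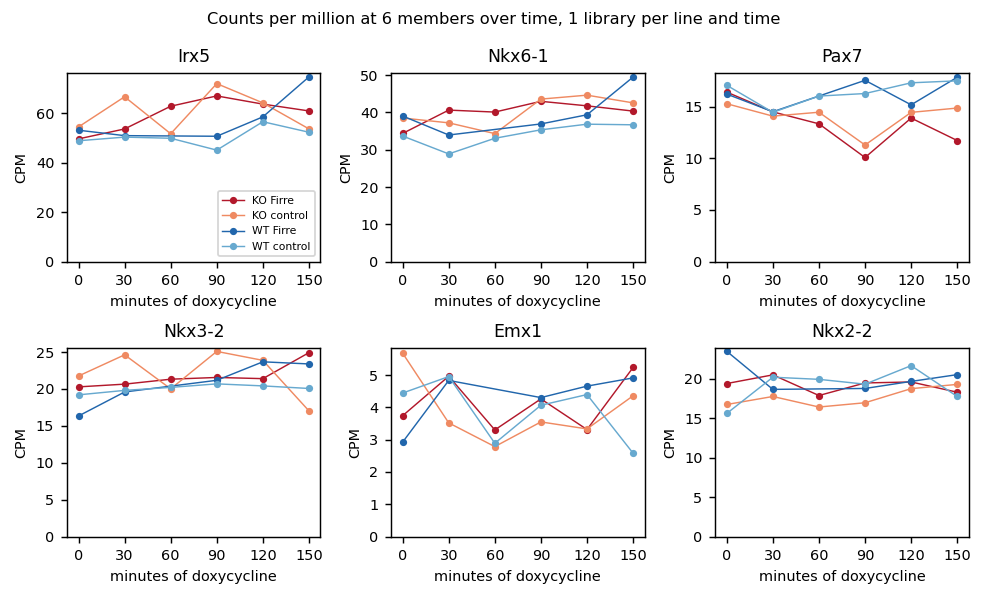
CPM of 6 members against minutes of doxycycline in the 4 lines, 1 library per point, with axes from 0. Irx5 and Nkx6-1 are highest in the WT Firre library of 150 min, Pax7 is lowest in the knockout lines at 90 min, and Emx1 stays below 6 CPM throughout.

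Outside the window of the members, 212 intervals of the 10 families had their centre more than 1000 bp from the TSS, and 201 of them were tested. Not all of them are distal. Of those called, both Meis3 intervals and the Irx1 interval are annotated as promoters. The Meis1 interval, 2797 bp wide, covers its TSS. Between KO control and WT control 16 of the 201 were called (7.96%, beside 7.97% of all tested intervals), 7 higher and 9 lower. That share is near the background, and the intervals named here were chosen after their values were seen. Of the 9 lower ones 4 lay upstream of Dlx2, at -17716, -35343, -61853 and -79866 bp, on chromosome 2. The farthest of these (chr2:71624556-71627077) had 19.1 ± 1.81 CPM in KO Firre, 14.6 ± 2.36 in KO control, 18.0 ± 2.09 in WT Firre and 18.0 ± 1.73 CPM in WT control libraries (SD, n = 6, 6, 5 and 6). Its log2 difference was -0.30 ± 0.10 between KO control and WT control (SE, edgeR adjusted p = 0.0367) and 0.38 ± 0.09 between KO Firre and KO control (SE, edgeR adjusted p = 0.0212), comparisons that share the KO control libraries. It was the 1 interval of the 201 called between KO Firre and KO control (0.498%, beside 0.913% of all tested intervals). The Dlx2 promoter itself had log2 differences of -0.05 ± 0.09 and 0.15 ± 0.08 (SE) in the same comparisons and passed neither test with TMM. With loess offsets it was called as lower in KO control than in WT control (-0.23, edgeR adjusted p = 0.0362). The intervals upstream of Dlx2 are given with TMM only.

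The other calls were spread over genes. Higher in the KO control line were a pair of intergenic intervals nearest Six4 (0.39 ± 0.09 and 0.47 ± 0.12), the nearest interval of Meis1, a partner of Hox proteins (0.28 ± 0.09, -1111 bp), that of Irx1 (0.34 ± 0.11, 1373 bp), an upstream interval of Meis3 (0.33 ± 0.10) and single intergenic intervals of Pax9 (0.40 ± 0.13) and Irx6 (0.68 ± 0.22, SE throughout). Lower were a further Meis3 interval (-0.72 ± 0.15) and single intervals at Nkx2-5 (-0.40 ± 0.10), Lhx4 (-0.39 ± 0.13), Pax5 (-0.70 ± 0.23) and Pax7, in intron 8 of 8 (-0.50 ± 0.17, SE throughout). The edgeR adjusted p of these intervals ran from 0.000705 to 0.0436. Meis1 lies on chromosome 11, where the median log2 difference between KO control and WT control over 1233 promoter intervals was 0.26. The part of the chromosome in the Meis1 value was not tested. Between KO Firre and WT Firre 1 of the 201 intervals was called (0.498%, beside 1.16% of all tested intervals). It was an intergenic one of Lhx9, lower in KO Firre (-0.49 ± 0.12, SE, edgeR adjusted p = 0.0168).

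Other homeobox genes, a list of 64 outside the 10 families, had a promoter interval for 41. Between KO control and WT control 4 of the 41 were called (9.76%), all higher: Otx1, a forebrain gene (0.41 ± 0.09), Isl1, a motor neuron and heart gene (0.33 ± 0.09), Pou4f2, a retinal ganglion cell gene (0.28 ± 0.08), and Hesx1, a pituitary and forebrain gene (0.28 ± 0.09, SE throughout). Their median was 0.07. Alx4, a limb gene, was lower in KO Firre than in KO control (-0.37 ± 0.10, SE, edgeR adjusted p = 0.0311). It was the 1 call of that comparison among the 41 (2.44%, beside 0.505% of all promoter intervals).

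Of 21 cofactor genes of these families 12 had a promoter interval, and 11 of the intervals were tested. Between KO control and WT control 3 of the 11 were called (27.3%), all higher. They were Pbx4 (0.35 ± 0.09), which pairs with Meis proteins, Ldb1 (0.27 ± 0.08), which binds LIM domains, and Lmo4 (0.41 ± 0.10, SE throughout). Among the embryonic stem cell markers 3 of 8 were called in the same direction, Esrrb, Zfp42 and Dppa5a, with log2 differences of 0.41, 0.31 and 0.27. The fibroblast feeder marker with a promoter interval, Fn1, was also called as higher (0.29 ± 0.09, SE, edgeR adjusted p = 0.0211), and 0 of the tested primitive endoderm, trophoblast and neural progenitor intervals were called by edgeR. The part of feeder cells in the line difference was not tested. The percentages between KO control and WT control stand beside the 17.6% of all promoter intervals, which itself moved with single libraries. The lists are too short to set their percentages apart from that share or from the members. The direction of calls over all promoter intervals also moved with the scaling. It was 2533 higher and 215 lower with TMM, against 601 higher and 484 lower with loess offsets. The calls in the lists are given with TMM only.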

How the data were processed

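ATAC-seq libraries of 4 mouse embryonic stem cell lines at 6 times of doxycycline were deposited as 1 table of counts per interval, made by the authors and not normalized. MACS2 2.2.7.1, featureCounts and build mm10 are named, per the submitters' processing notes. How reads were aligned, whether duplicates were removed or reads shifted for the transposase, and which annotation was used is not given in the sources. Each of the 145143 intervals carries the authors' annotation to a gene and a distance to its TSS. The table held 23 of the 24 labelled libraries. Starts were printed as the deposited table gives them.

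Of these, 129515 intervals passed filterByExpr of edgeR 4.0.16 (R 4.3.3) at a minimum count of 10. Library sizes were scaled by TMM, and a quasi-likelihood F test was fitted on all intervals with line and time as terms, which leaves 14 residual degrees of freedom. The shared times pair the libraries of different lines, and the time term is that block. The time contrasts used a model that adds a transgene effect at each time (9 residual degrees of freedom), and the slope used linear terms in their place (17). Adjustment was by Benjamini-Hochberg across the tested intervals, with calls at 0.05. Each SE came from the F statistic. It includes the variation between libraries. CPM used the TMM sizes, and floors cover counting error only. Each model was tested on simulated data. DESeq2 1.42.0, limma-voom 3.58.1, total counts, loess offsets, other filters, distance windows of 500 and 2000 bp and left-out libraries were tried as alternatives. No pair of libraries within a line agreed within sampling noise (chi-square per degree of freedom 1.1 to 2.79 over 55 pairs).

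The members and gene lists were chosen with earlier results of these data known. Named genes were those called between lines, those with the smallest p in each time contrast, the 6 highest and 6 lowest levels, the highest of each family and the widest interval; others are said to be chosen for their values. Some further genes of these families and lists are not reported here and are in no count or sum of members.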

Additional observations from a re-analysis of the deposited data

Results flagged for a closer look

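Within a line, a library was looked at again where its gap to the nearest other library was large for the range of the line (Dixon's test at 95%). This held for 17 of 168 groups, and chance flags about 1 in 20. The KO Firre library of 0 min was involved most often. It was low at Nkx6-1 (34.37 CPM), Msx2 (9.636 CPM), Pitx3 (28.33 CPM) and Irx4 (11.51 CPM), and in the summed level of the members (726.9 CPM). It also had the lowest promoter share of its line, 24.7%. The WT Firre library of 150 min was high in the summed level (868.2 CPM) and at Pax3 (12.92 CPM), and its promoter share of 28.0% was the highest of its line.

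Other KO Firre libraries stood apart at Lhx8 (22.34 CPM at 60 min), Pax9 (7.241 CPM at 30 min), Nkx1-2 (18.91 CPM at 30 min) and Nkx3-2 (24.92 CPM at 150 min). The KO control library of 90 min was apart at Irx4 (13.30 CPM) and low at Pax7 (11.28 CPM). A WT Firre library was apart at Lhx9 (4.571 CPM at 30 min). Among WT control libraries, that of 60 min was apart at Nkx2-4 (22.71 CPM) and the Irx6 intron (1.969 CPM), and that of 30 min at Msx3 (15.68 CPM). The part of these libraries in the line differences is given by leaving each out.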

How the results depend on the processing

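Between KO control and WT control, 0 members were called by edgeR. The number was 1 with DESeq2, 2 with limma-voom, 1 with total counts, 3 with loess offsets, 2 with a mean of at least 50 counts required, 1 with only the lines of the contrast fitted and 2 of 53 within 2000 bp. Leaving out 1 library gave 0 to 2. The median was -0.0142 with total counts, -0.0594 with loess offsets, -0.0170 with the stricter filter and -0.00133 with a term for the share of counts in promoters. Without the time term, which is the block of libraries paired by time, 0 members were called and the median was 0.080; this block changed no call of a member. Irx5 had the opposite sign with loess offsets (-0.058) and the promoter share term (-0.050), Nkx6-1 with loess offsets (-0.0047) and Six5 with loess offsets (-0.15). Between KO Firre and WT Firre the count was 1 with total counts, 1 with loess offsets, 1 with the stricter filter and 1 without the 0 min libraries, and 0 to 1 on leaving out a library (called without the KO Firre library of 0 min or the KO control one of 150 min), each time Pax7; the median was -0.0981 with loess offsets and -0.101 with the stricter filter. The median mean response, Firre lines minus control lines, was 0.0764, and 0.0194 to 0.0984 on leaving out a library, lowest without the KO Firre library of 0 min. With loess offsets the median was also 0.0108 between WT Firre and WT control and -0.0546 for the response of the control lines. The summed level of the KO control line was 750.2 CPM with total counts. The cause of these shifts was not tested. The contrast of both transgene effects could not be fitted with only the lines of the contrast. Depth limits the narrow members most: Lhx4 had 1.34 CPM.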
